A study of Mus musculus with 6 samples.

Results

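Cholesterol synthesis was followed through 7 genes in cartilage cells (chondrocytes) of the mouse. They are Hmgcs1, Idi1, Fdft1, Sqle and Lss, which encode enzymes of the pathway, and Srebf2 and Insig1, which encode its main transcription factor and a brake on it. The genes were taken by symbol from a count table of 23867 genes, where all 7 had a row and all 7 passed the filter on low counts, as did 15028 genes of the whole table. None of the 7 encodes a receptor for cholesterol uptake. Uptake is therefore described from other genes of a separate list.

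The series compared 3 libraries of chondrocytes from wild-type mice (genotype MFN2wt) with 3 from mice whose genotype label is MFN2Col2a1-/-, called the knockout here. Mfn2 encodes mitofusin 2, a protein of the outer mitochondrial membrane that joins mitochondria and tethers them to the endoplasmic reticulum, and Col2a1 is a cartilage collagen gene. The knockout libraries are the columns CRE1, CRE2 and CRE3 of the deposited tables. Not given in the sources used here are the promoter behind the Cre columns, the age and sex of the mice, the joint and the culture of the cells. The labels also leave unsaid whether each library had its own animal, and p-values here measure library-to-library spread alone, which may be technical.

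Cells build cholesterol from acetyl-CoA. The mevalonate steps make isoprenoid units, which are joined into squalene, and squalene is then oxidized, closed into the sterol ring system and trimmed to cholesterol by enzymes of the endoplasmic reticulum. The factor SREBP2, the product of Srebf2, switches these genes on when sterols run low, and INSIG proteins hold it back in the endoplasmic reticulum when sterols are plentiful.

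Total counts were 31481779 to 37814723 in the knockout libraries and 39267487 to 40152687 in the wild type. Mfn2 was lower in each knockout library (56.5 to 64.0 CPM) than in any wild-type library (106 to 108 CPM), a reduction to 0.559 of the wild-type mean, so the transcript was lowered and not absent. Levels are TMM-normalized CPM, read counts scaled to the size of each library, values after ± are SDs over n = 3 libraries, and fold changes are log2 values of knockout against wild type with their standard error (SE). Of 10 chondrocyte markers, 8 fell and 2 rose. They summed to 3028 to 3161 CPM in the knockout against 8344 to 8531 CPM in the wild type. Col2a1 stood at 492 to 543 CPM in the knockout against 3339 to 3477 CPM in the wild type. All 12 macrophage markers fell, with a summed level of 300.2 to 313 CPM against 3038 to 3063 CPM, and all 8 markers of dividing cells fell, with 121 to 132 CPM against 434 to 448 CPM. Of 7 tested fibroblast markers, 4 rose and 2 fell, and Col1a1 was not called (log2 fold change 0.0064). The 8 listed fibroblast markers summed to 23250 to 23880 CPM against 14480 to 14610 CPM. This was above the chondrocyte sum in both groups, but CPM sums over different genes are not scaled for gene length and give no amounts of cells. All 5 osteoblast markers fell (27.16 to 27.96 CPM summed, against 94.6 to 99.6 CPM), and the 8 immediate-early genes summed to 809 to 838 CPM against 209 to 215 CPM, with 4 higher and 4 lower. Adipocyte markers summed to 199 to 216 CPM against 68.1 to 74.3 CPM, with 1 of 3 tested called higher (Fabp4, also named with its values known), and pericyte and smooth muscle markers to 249.7 to 266 CPM against 428 to 439 CPM, with 4 of 5 lower. Summed levels of the endothelial, muscle, neutrophil and lymphocyte, erythroid and hepatocyte markers stayed at or under 25.5 CPM in every library. Of the neutrophil and lymphocyte markers, 2 of 2 tested were called higher (5.52 to 6.50 CPM summed, against 0.379 to 0.610 CPM). Of 4 tested endothelial markers, 1 rose and 1 fell, and no tested muscle, erythroid or hepatocyte marker was called. The liver marker Alb, which was not tested, was at 0 in all knockout libraries and at most 0.0938 CPM in the wild type. In such bulk RNA, fewer cells of a type and less RNA per cell cannot be told apart, and the part of these markers in the results below was not tested.

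The promoters of the genes are shown because the genes share known control by SREBP2. RefSeq start-site windows (build GRCm38.p6) were matched for 5 of the 7 genes, and Sqle and Fdft1 were not matched. The 150 bases before the start site are printed 5′ to 3′ for Idi1, which fell most, for Hmgcs1, and for Lss, which rose. All are on the plus strand, at chr13:8885456-8885605, chr13:119690201-119690350 and chr10:76531455-76531604. Capitals mark matches, on either strand, to the sterol regulatory element TCACNCCAC, the NF-Y box CCAAT and the GC box GGGCGG.
Idi1: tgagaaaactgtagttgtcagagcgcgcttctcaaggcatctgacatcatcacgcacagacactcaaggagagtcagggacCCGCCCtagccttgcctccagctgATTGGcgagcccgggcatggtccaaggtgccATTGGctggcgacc
Hmgcs1: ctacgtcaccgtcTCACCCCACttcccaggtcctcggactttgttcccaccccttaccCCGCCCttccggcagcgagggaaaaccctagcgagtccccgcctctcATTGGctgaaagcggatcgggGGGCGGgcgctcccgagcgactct
Lss: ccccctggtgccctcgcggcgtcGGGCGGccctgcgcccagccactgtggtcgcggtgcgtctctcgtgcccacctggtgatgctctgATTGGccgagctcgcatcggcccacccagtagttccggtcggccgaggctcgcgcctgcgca

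In the full 250 bases before the start, the NF-Y box was found in 5 of 5 matched genes and in 33.8% of 32851 windows of that length. The GC box was also found in 5 of 5, and in 32.7% of all windows. The sterol element in this exact spelling was found for 1 of the 5, Hmgcs1, at 137 bases before the start, and in 1.05% of all windows. An E-box (CANNTG) was present in 4 of the 5 and in 66.2% of windows. These matches are letters in a window, not measured binding. Idi1, Hmgcs1 and Lss each hold an NF-Y box and a GC box within the printed stretch. Of these, Idi1 and Hmgcs1 fell and Lss rose, and a link between motifs and direction was not tested.

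The comparison asked how the pathway is expressed in the cells labelled as the Mfn2 knockout. The 7 genes did not move as a block. Sqle and Lss rose, while Idi1, Hmgcs1, Fdft1 and Insig1 fell and Srebf2 did not pass the test. That is 2 of 7 called higher, where 30.7% of all tested genes were called higher, and 4 of 7 called lower, where 32.1% were, with a call set at an adjusted p below 0.05 (edgeR, quasi-likelihood, whole table). In either direction 62.7% of the tested genes were called, so being called sets none of these genes apart. The median log2 fold change was −0.13 over the 7 genes and −0.02 over all tested genes.

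**Figure D1:**
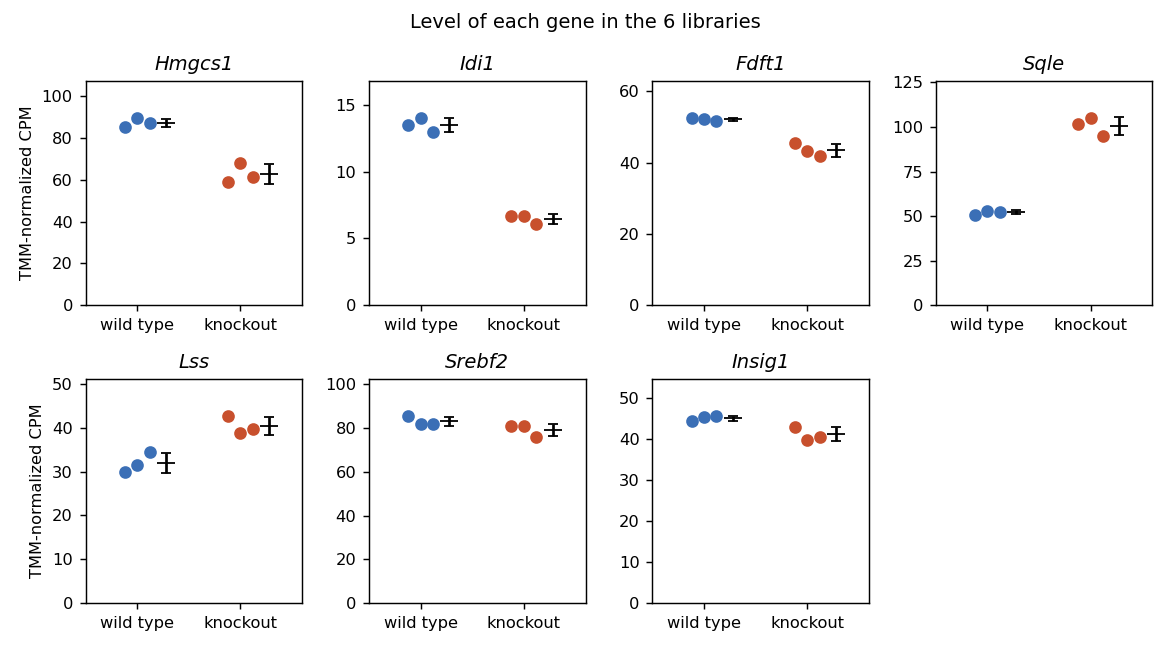
TMM-normalized CPM (vertical axes, each from 0) of the 7 genes in the 3 wild-type (blue) and 3 knockout (red) libraries, with points for libraries and bars for mean ± SD. Sqle and Lss sit higher in the knockout, Idi1 is at 6.47 CPM against 13.5 CPM, and the 2 groups of Srebf2 and Insig1 lie close together.

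Sqle encodes squalene epoxidase, which puts the first oxygen onto squalene and is a rate-limiting step of the pathway. Its level was 102, 105 and 95.1 CPM in CRE1, CRE2 and CRE3 and 50.8, 53.1 and 52.4 CPM in the wild-type libraries. The groups were far apart, with the lowest knockout library well above the highest wild-type one. The rise was 1.93-fold (log2 fold change 0.95, SE 0.045, adjusted p = 4.04e-11, edgeR), and 91.5% of tested genes had a lower fold change. It was called under all 17 other settings, at log2 values of 0.71 to 1.00.

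Lss encodes lanosterol synthase, which closes the epoxide made by squalene epoxidase into the first sterol. Lss stood at 42.7, 38.7 and 39.8 CPM in the knockout libraries and at 30.0, 31.6 and 34.4 CPM in the wild type. The groups did not overlap, though wild-type library 3 came near them, and 67.1% of all tested genes likewise showed no overlap. Lss thus rose by 0.34 on the log2 scale (SE 0.060, adjusted p = 0.00016, edgeR). It was lost when libraries were scaled by total counts alone (0.13, adjusted p = 0.0726).

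Idi1 encodes isopentenyl-diphosphate isomerase, which interconverts the building blocks of all isoprenoids. Idi1 was at 6.67, 6.70 and 6.05 CPM in the knockout libraries and at 13.5, 14.0 and 13.0 CPM in the wild type. Every knockout library was at about the same low level, with 182 to 237 reads behind each value. This was the largest fall among the 7 genes, 2.08-fold (log2 fold change −1.06, SE 0.092, adjusted p = 6.59e-08, edgeR), yet 11.7% of all tested genes had a lower fold change than Idi1.

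Hmgcs1 encodes the cytosolic HMG-CoA synthase, which feeds the mevalonate pathway. Its level was 58.9, 67.9 and 61.6 CPM in the knockout libraries and 85.3, 89.5 and 87.0 CPM in the wild type. CRE2 was the highest of the knockout libraries and still lay below all wild-type libraries. Hmgcs1 fell by 0.47 on the log2 scale (SE 0.051, adjusted p = 7.22e-07, edgeR), and both Hmgcs1 and Idi1 were called lower under all 17 other settings.

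Fdft1 encodes squalene synthase, which commits isoprenoids to sterols one step before squalene epoxidase. Fdft1 was at 45.4, 43.4 and 41.7 CPM in the knockout libraries and at 52.4, 52.2 and 51.7 CPM in the wild type. The groups did not overlap, and the fall was small (log2 fold change −0.26, SE 0.047, adjusted p = 0.00016, edgeR). In GENCODE M21, an annotation of the preceding assembly, Fdft1 overlaps the abundant cathepsin gene Ctsb on the opposite strand. The strand setting of the counting is not given in the sources used here, so how reads in the overlapping stretch were assigned is not known. Ctsb itself stood at 1850 to 1937 CPM among knockout libraries against 2418 to 2450 CPM among wild-type ones (−0.37), and its part in the Fdft1 value was not tested.

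With TMM factors, both regulators among the 7 genes differed little. Srebf2 was at 80.9, 80.9 and 76.1 CPM in the knockout libraries and at 85.5, 81.9 and 81.8 CPM in the wild type. The knockout values were all lower, by less than the test could call (log2 fold change −0.07, SE 0.042, adjusted p = 0.18, edgeR). With total counts alone Srebf2 was called lower (−0.28, adjusted p = 3.28e-05).

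Insig1 encodes a sterol-responsive membrane protein that retains the SREBP complex in the endoplasmic reticulum. It was at 43.0, 39.7 and 40.6 CPM in the knockout libraries and at 44.3, 45.3 and 45.6 CPM in the wild type. CRE1 came close to wild-type library 1, and the fall was small (log2 fold change −0.13, SE 0.048, adjusted p = 0.026, edgeR). Its call was lost with DESeq2 (adjusted p = 0.112) and when CRE2 (0.178), CRE3 (0.114), wild-type library 2 (0.0679) or wild-type library 3 (0.0751) was left out.

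Sums hide this divergence. Over the 7 genes the summed level was 361 to 382 CPM among knockout libraries against 361.7 to 367.5 CPM among wild-type ones, so the groups overlapped. Over 22 synthesis enzymes it was 789 to 806 CPM against 787 to 799 CPM. Both comparisons rest on TMM scaling. With total counts alone, the 7 genes summed to 335 to 358 CPM for the knockout libraries against 388 to 395 CPM for the wild type, and the 22 enzymes to 733 to 745 CPM against 844 to 859 CPM, without overlap.

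Ratios between genes within a library do not depend on how libraries are scaled, and 20 of the 21 pairs of the 7 genes had ratios that did not overlap between the groups. Over all pairs of 14853 tested genes with a count in every library, 67.9% likewise did not overlap, and the 21 pairs share their 7 genes. The ratio of Sqle to Fdft1, consecutive steps, was 8.51, 9.16 and 8.64 in the knockout libraries and 3.68, 3.86 and 3.85 in the wild type, from deposited FPKM values (counts scaled by gene length and library total). The ratio of Sqle to Idi1 changed most, from 4.04 ± 0.159 in the wild type to 16.2 ± 0.251 in the knockout, a difference of 2.01 in log2 ratio. Between Sqle and Lss, both of which rose, the ratio still went from 4.11 ± 0.238 to 6.27 ± 0.466. Insig1 and Srebf2 were the pair that overlapped, with ratios of 1.03 to 1.12 among knockout libraries against 1.08 to 1.17 among wild-type ones. With 3 libraries against 3, a two-sided exact permutation test cannot give less than p = 0.1, which each separated pair reached (0.105 after Benjamini-Hochberg adjustment over 21 pairs). These ratios are therefore descriptions.

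**Figure D2:**
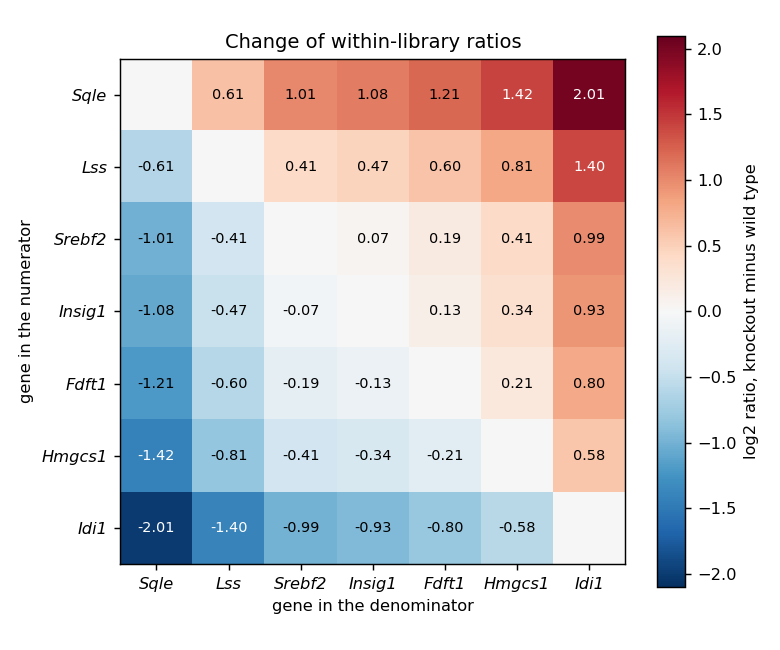
Difference in mean log2 ratio of deposited FPKM, knockout minus wild type, for each pair of the 7 genes (row gene over column gene, red for a higher ratio in the knockout). The Sqle row is positive throughout and reaches 2.01 against Idi1, while Srebf2 over Insig1 is near 0.

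The order of the genes by length-scaled level also changed. In the wild type Hmgcs1 was highest at 22.3 ± 0.557 FPKM, followed by Sqle (20.4 ± 0.496 FPKM), Insig1 (18.3 ± 0.302 FPKM) and Srebf2 (16.1 ± 0.391 FPKM), with no overlap between neighbours. Fdft1 (5.37 ± 0.0328 FPKM), Idi1 (5.05 ± 0.188 FPKM) and Lss (4.97 ± 0.354 FPKM) formed a lower tier, in which Lss overlapped both Idi1 and Fdft1. In the knockout Sqle stood alone at the top with 34.0 ± 1.78 FPKM. Insig1, Hmgcs1 and Srebf2 followed at 14.4, 13.9 and 13.3 FPKM, overlapping with their neighbours, and Lss (5.43 FPKM), Fdft1 (3.88 FPKM) and Idi1 (2.099 FPKM) came last without overlap. These levels depend on the authors' gene lengths, which the tables imply to be 10420 bases for Fdft1 and 2867 bases for Idi1, and on scaling by total counts.

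**Figure D3:**
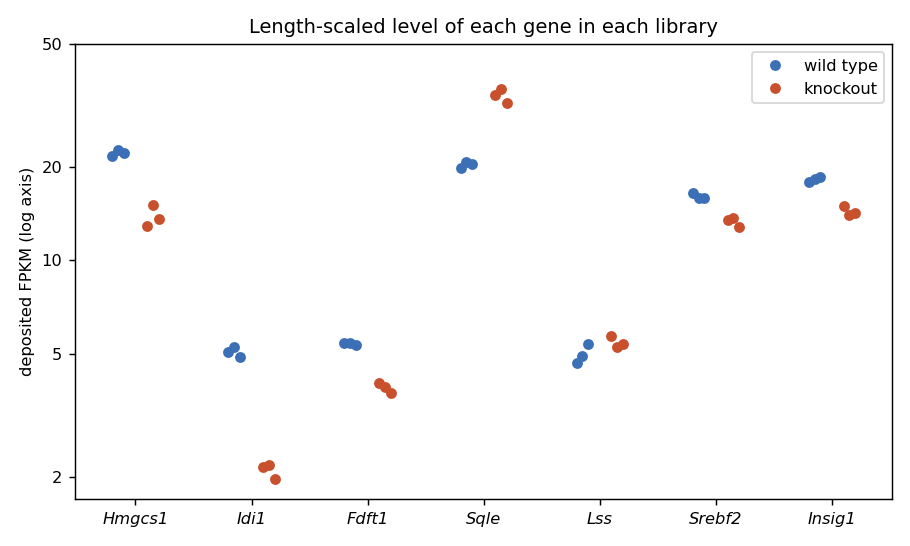
Deposited FPKM (log axis) of the 7 genes in each wild-type (blue) and knockout (red) library. Sqle is the highest gene in the knockout at 32.1 to 35.7 FPKM, and Idi1 the lowest at 1.96 to 2.19 FPKM.

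The other enzymes of the pathway were listed by known role, and Erg28, not known to be an enzyme itself, is counted with them throughout. Of 17 tested enzymes outside the 7 genes, 2 rose, 9 fell and 6 missed the threshold (median log2 fold change −0.13). With the 7 genes' enzymes included, 4 of 22 rose and 12 fell, beside 30.7% and 32.1% of all tested genes, where 62.7% were called in either direction. All 4 rises, Sqle, Lss and Hsd17b7 among them, lay after squalene. Of the 14 listed genes from squalene synthase on, 4 rose and 8 fell, beside those same whole-table shares. In the mevalonate steps none of 8 enzymes rose and 4 fell. With total counts alone 3 of the 14 rose and 10 fell, where 2789 and 7627 of all 15028 tested genes did.

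Hsd17b7, a ketoreductase that helps remove methyl groups from the ring, was at 61.3, 60.9 and 59.3 CPM in the knockout libraries and at 36.0, 35.3 and 36.8 CPM in the wild type. The groups were far apart, a rise of 1.68-fold (log2 fold change 0.75, SE 0.045, adjusted p = 6.41e-10, edgeR).

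Of the listed genes after Lss, 7 fell. Cyp51, the lanosterol demethylase directly after Lss, was at 39.1 ± 2.15 CPM in the knockout against 59.0 ± 1.78 CPM (a fall of −0.59 in log2, SE 0.050, adjusted p = 4.87e-08, edgeR). Dhcr7, which reduces a double bond of the sterol ring, fell by 0.57 on the log2 scale, Nsdhl fell by 0.46 and the methyl sterol oxidase Msmo1 fell by 0.32. Smaller falls were called for Ebp (−0.24) and Sc5d (−0.14). Erg28 (−0.13) passed narrowly (adjusted p = 0.0417, edgeR), and its call was lost under 9 of 17 other settings, among them DESeq2 (0.156) and the loss of any library but wild-type library 3. The call of Ebp was lost without wild-type library 3 (adjusted p = 0.0544). The reductases Tm7sf2 (−0.13) and Lbr (−0.06) did not pass the test.

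Among the mevalonate steps, Pmvk (log2 fold change −0.33) and Mvd (−0.26), which act between mevalonate and the isomerase step, were called lower. The call of Pmvk was lost without CRE2 or CRE3, and that of Mvd with DESeq2 and without CRE1, CRE2, or wild-type library 2 or 3. Acat2 (−0.12), Mvk (0.0048) and Fdps (−0.11), the farnesyl diphosphate synthase, did not pass the test. Without CRE2, 2 of the 8 mevalonate enzymes were called lower, Hmgcs1 and Idi1, while total counts alone gave 7 of 8. With total counts alone 7627 of all 15028 tested genes were also called lower.

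**Figure D4:**
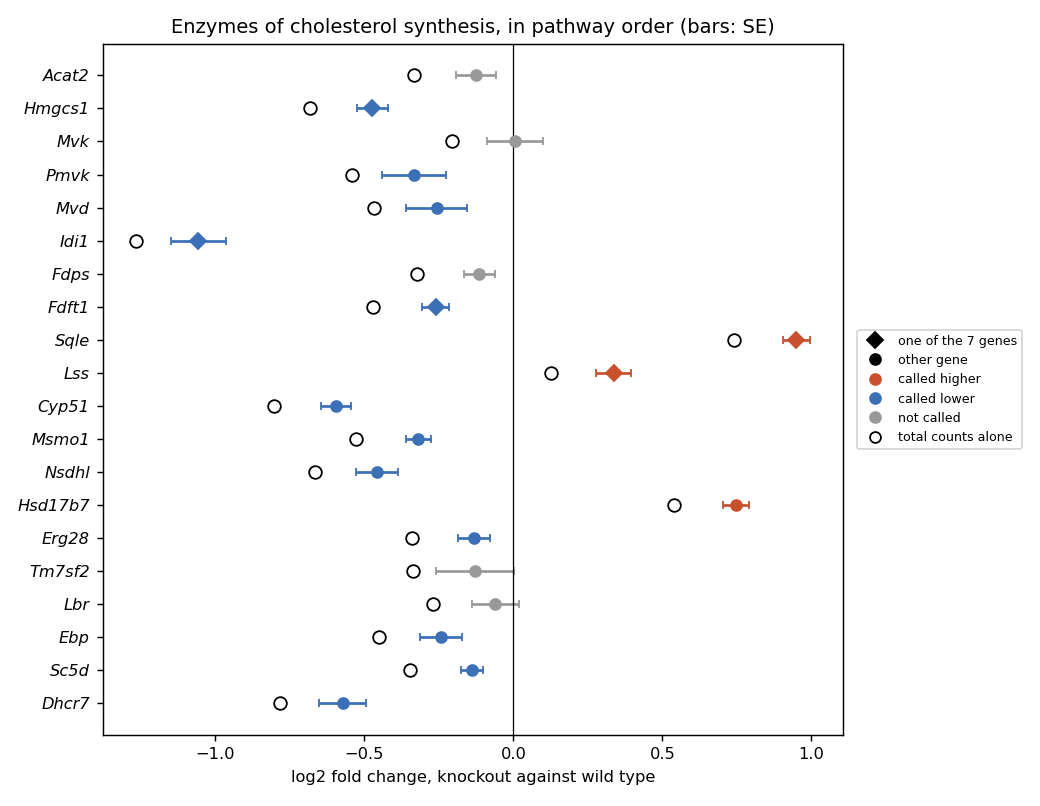
Log2 fold change (horizontal axis) of the reported synthesis enzymes in pathway order, with bars for SE, diamonds for the 5 enzymes among the 7 genes, red and blue for calls in edgeR, and open circles for total counts alone. Sqle, Lss and Hsd17b7 lie right of 0 under both scalings, and Idi1 lies farthest left.

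Genes of sterol sensing gave 7 rises and 5 falls among 14, with 2 not called, where 30.7% of all tested genes rose and 32.1% fell. The clearest rise was that of Insig2, the second INSIG gene, at 179, 173 and 179 CPM in the knockout libraries against 71.4, 70.6 and 72.5 CPM in the wild type. The Insig2 groups were far apart (log2 fold change 1.31, SE 0.036, adjusted p = 3.67e-14, edgeR). The ratio of Insig1 to Insig2 by FPKM was 0.638, 0.607 and 0.600 in the knockout and 1.64, 1.70 and 1.67 in the wild type, so the more abundant INSIG transcript per length was Insig1 in the wild type and Insig2 in the knockout. Likewise the ratio of Srebf2 to Srebf1, the gene of the related factor SREBP1, was 0.859 to 0.882 for the knockout libraries and 1.04 to 1.15 for the wild type. Srebf1, like Ctsb, lies outside the rule for named genes and was added with its values known.

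Other parts of the sensing machinery moved in both directions. Rnf145, a ubiquitin ligase of the endoplasmic reticulum, rose from 88.5 ± 1.93 to 164 ± 9.04 CPM (log2 fold change 0.89). Mbtps1, the site-1 protease that cuts SREBP, fell from 233 ± 2.95 to 189 ± 4.28 CPM (−0.30), and the ligase Rnf139 fell from 45.2 ± 0.792 to 34.3 ± 2.09 CPM (−0.40). With total counts alone 2 genes of this list rose in place of 7, and 7 fell in place of 5. Over all 15028 tested genes 2789 rose and 7627 fell with that scaling.

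For uptake and transfer of cholesterol, 8 of 15 tested genes rose and 3 fell (median log2 fold change 0.34). Over the whole table the shares were 30.7% and 32.1%, with a median of −0.02. With total counts alone 8 of the list rose and 5 fell, where 2789 and 7627 of all 15028 tested genes did. The lipoprotein receptor Vldlr was at 583, 609 and 639 CPM in the knockout libraries and at 154, 152 and 151 CPM in the wild type, a 4.01-fold rise without overlap. Scarb1, the receptor for high-density lipoprotein, rose from 32.0 ± 0.470 to 71.1 ± 2.80 CPM (log2 fold change 1.15). Genes that release cholesterol from lysosomes moved in both directions. The acid lipase Lipa fell from 187 ± 5.27 to 82.5 ± 1.87 CPM (−1.18) and the exporter Npc1 fell from 97.0 ± 2.75 to 69.4 ± 2.11 CPM (−0.48). Npc2, which hands cholesterol to Npc1 and is named outside the rule with its values known, rose from 675 ± 17.5 to 923 ± 24.1 CPM (0.45, adjusted p = 1.36e-09, edgeR). Macrophages also express these lysosomal genes, and all 12 macrophage markers fell over the same libraries (median −4.62). Their part in these values was not tested.

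Genes of storage, oxysterols and efflux gave 5 rises and 5 falls among 12, beside 30.7% and 32.1% over the whole table. Soat1, which esterifies cholesterol for storage, rose from 99.7 ± 3.47 to 249 ± 6.12 CPM (log2 fold change 1.32, SE 0.037), while Nceh1, a hydrolase of cholesteryl esters, fell from 65.6 ± 2.33 to 17.6 ± 1.31 CPM (−1.91, SE 0.059). Ch25h, which makes 25-hydroxycholesterol, an oxysterol that restrains SREBP2, rose from 15.1 ± 0.400 to 49.0 ± 0.318 CPM (1.70, SE 0.052). The largest adjusted p of these 3 genes was 1.93e-13 in edgeR's test.

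**Figure D5:**
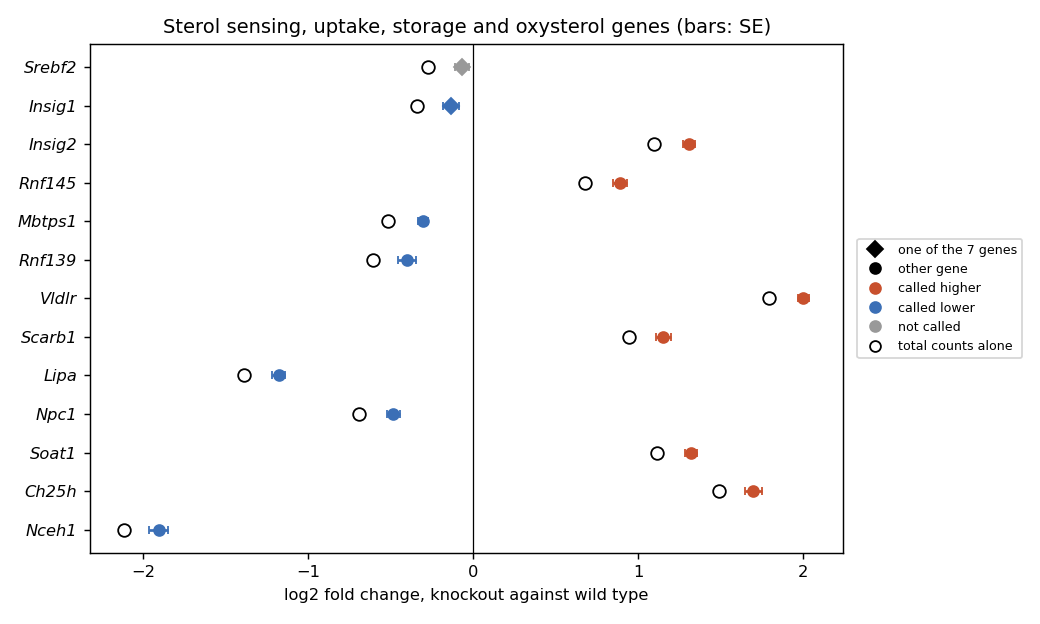
Log2 fold change (horizontal axis) of Srebf2 and Insig1 (diamonds) and of other genes of sensing, uptake, storage and oxysterols, with bars for SE, colours for calls in edgeR and open circles for total counts alone. With TMM factors Srebf2 and Insig1 lie near 0, with Vldlr at 2.00 and Nceh1 at −1.91 at the extremes.

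For each of the 7 genes, the gene most like it was the 1 with the smallest root mean square difference in log2 CPM, each centred on its wild-type mean, over the 6 libraries and 9595 other genes. These were Baiap2l1 for Sqle (0.0247), Sema4c for Lss (0.0213), Itpkb for Idi1 (0.0172), Shfl for Hmgcs1 (0.0228), Rps18 for Fdft1 (0.0105), Prdx3 for Insig1 (0.0142) and Reep5 for Srebf2 (0.0157). No gene of the 7 was nearest to another of them. With profiles centred on the wild type, this follows largely from the fold changes given above and is no separate result.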

How the data were processed

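RNA was isolated with TRIzol reagent, per the labels' protocols. Per the submitters' processing notes, fastp, HISAT2, HTSeq and build GRCm39 were used, with no versions or roles. Not given in the sources used here are strand setting, annotation and filters. The deposited tables with 6 columns each hold the authors' raw counts and their FPKM values. For 12594 genes with at least 20 counts per library, every deposited FPKM equals the count over the column total and 1 length per gene (tolerance 1e-06). Wild-type columns match titles by number, while knockout columns show their group alone.

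R 4.3.3 ran the main test of the counts, edgeR 4.0.16 (quasi-likelihood, two-sided, group alone, TMM, filterByExpr with a minimum count of 10), with Benjamini-Hochberg adjustment over all tested genes, checked on simulated data. SE is the size of the log2 fold change over the square root of F. Libraries of a group differed beyond sampling noise (chi-square over degrees of freedom 3.19 to 8.09) and were counted separately. The genes and lists were chosen with earlier results of these data known. Named are the 7 genes, Mfn2, all tested synthesis enzymes and the 2 smallest p-values in each direction of each other pathway list. The gene most like each of the 7 is also named (mean log2 CPM of at least 3, no predicted genes). Of the defining cell type markers, which were to be named, only Col2a1, Col1a1 and Alb are, and the others enter through their lists. A few genes covered by the rule are not reported here, although list totals include them. Alternatives comprised limma-voom (limma 3.58.1), DESeq2 1.42.0, DESeq2 size factors, upper-quartile factors, total counts alone, no filter, a CPM above 1 in 3 libraries, each library left out, a block on the column number, and limma on log2(FPKM + 1) or log2(FPKM + 0.1) with a minimum mean FPKM of 1, or without that filter. RefSeq promoter windows are of build GRCm38.p6.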

Additional observations from a re-analysis of the deposited data

How the results depend on the processing

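Calls for Sqle, Idi1, Hmgcs1 and Fdft1 held with the same sign under all 17 other settings. Scaling by total counts alone shifted the median over all genes by −0.209 (log2), and smaller changes depend on that choice. It gave 2789 higher and 7627 lower calls over all genes (26.8% of calls higher, against 48.9% with TMM factors and 38% with upper-quartile factors). With it, Lss was 0.13 (not called), Srebf2 was −0.28 (called lower), 1 of the 7 genes was called higher, 7 mevalonate enzymes and 5 genes each of uptake, isoprenoid branches and fatty acid synthesis were called lower, and 2 sensing genes higher. The limma fits on FPKM values, which share that scaling, gave the same counts for the 7 genes and for mevalonate (7 lower), sensing (2 higher), uptake (5 lower) and isoprenoid branches (5 lower). On log2(FPKM + 1) Lss was 0.11, Srebf2 −0.26 and higher calls 2354. On log2(FPKM + 0.1) they were 0.13, −0.27 and 2345. On log2(FPKM + 1) without a filter they were 0.11, −0.26 and 2706, with 7328 lower calls. With upper-quartile factors Srebf2 was called lower (−0.16), as were 7 mevalonate enzymes. With DESeq2 Insig1 was −0.12 (not called). Leaving out 1 library gave Insig1 values of −0.16 to −0.093, 2 to 4 mevalonate enzymes lower and 1 to 3 isoprenoid genes lower, the fewest in both lists without CRE2. Among uncalled genes, Mvk turned negative with upper-quartile factors (−0.086), total counts alone (−0.20), no filter (−0.0018), a CPM above 1 in 3 libraries (−0.00068) and FPKM (−0.18 for log2(FPKM + 1) with and without a filter, −0.20 for log2(FPKM + 0.1)), and ranged from −0.078 to 0.080 with 1 library left out, where Lbr ranged from −0.11 to 0.028. Column numbers are not shown to pair the samples: deviations of same-numbered columns correlated at −0.0954 to 0.0553. A replicate block on that number gave 9094 calls in place of 9430, kept 2 of the 7 genes called higher and 4 lower, and left Insig1 at an adjusted p of 0.0475 (edgeR).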

Other observations

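In branches that leave the pathway before squalene, calls came about as often as in the whole table, where 30.7% of genes rose and 32.1% fell. Of 11 genes that use isoprenoids for dolichol, ubiquinone or protein prenylation, 3 rose, 3 fell and 5 did not pass the test (median log2 fold change 0.02). Nus1, a subunit of the enzyme that starts dolichol synthesis, rose from 98.7 ± 3.02 to 160 ± 4.69 CPM (0.70, adjusted p = 2.1e-10, edgeR). Rabggta, a subunit of the Rab prenyltransferase, rose from 14.8 ± 0.611 to 23.8 ± 0.402 CPM (0.69), while its partner subunit Rabggtb fell (−0.19), a call lost without CRE2, CRE3 or wild-type library 3. Fnta, a subunit shared by farnesyl and geranylgeranyl transferases, fell by 0.22 on the log2 scale.

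Fatty acid synthesis, which the related factor SREBP1 is known to drive, gave 6 rises and 3 falls among 11 genes, beside those same whole-table shares. The desaturases Scd2 and Scd1 rose by 1.10 and 0.71 on the log2 scale. Elovl6, which lengthens saturated fatty acids, fell from 36.5 ± 0.763 to 14.9 ± 2.51 CPM (−1.29, SE 0.087), and the desaturase Fads1 fell from 112 ± 2.21 to 72.6 ± 3.32 CPM (−0.62).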
